A study of Mus musculus with 8 samples.

Results

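The genes described here build and serve the primary cilium, and 36 were chosen by name: 11 intraflagellar transport genes, 7 BBSome subunits, 2 chaperonin-like BBS genes, 3 small GTPases, 8 genes of the MKS module of the transition zone, Cep290 with 2 genes linked to the NPHP module, and 2 basal body genes. They were read on 8 Affymetrix exon arrays of cortex RNA from mice at embryonic day 18.5, 4 wild type and 4 Ptbp2 KO (knockout), all of a mixed background of the CD1 and C57BL/6 strains. The allele behind the knockout is not described in the sources used here. Nothing says that each array is a separate embryo, so p-values measure the spread between these samples, which may be technical in part. An exon array reads a gene through many probe sets, each a small group of probes for a stretch of sequence. Of the 36 genes, 34 had probe sets annotated to that gene alone. Arl6 and Arl13b had no probe set under their name here and were not analysed. The 34 genes held 871 such probe sets, of which 691 had a mean log2 signal over the 8 arrays at or above 6.84, the median of the table. Each of the 34 had between 4 (Bbs10) and 54 (Ift172) of these retained probe sets and was tested, among 12960 genes in all. A gene's level on an array was the median of its retained probe sets.

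A primary cilium is a single antenna that grows from the mother centriole of most cells, among them the radial glia and neurons of the developing cortex. Cargo moves along it on trains: IFT-B with a kinesin carries it towards the tip, and IFT-A with a dynein brings it back. The BBSome is a coat that rides these trains and carries membrane receptors. The transition zone at the base gates what enters, and Hedgehog signals in vertebrates pass through the cilium. Ptbp2 is a neuronal RNA-binding protein that represses alternative exons.

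The targeted gene checked the labels: Ptbp2 had a log2 level of 11.20 ± 0.14 on the wild type arrays and 5.95 ± 0.34 on the knockout arrays (SD, n = 4 each; limma adjusted p = 1.7e-12). Its knockout level lay below the signal filter, so the size of that fall is not exact. Array medians of the log2 signal lay between 6.82 and 6.93, and arrays correlated at 0.969 to 0.985 with each other over all probe sets. Precision is limited by having 4 arrays a group. Of 8 neuronal markers, 7 could be tested, 3 higher and 4 lower in knockout cortex, none past the threshold. Their mean log2 level was 11.07 to 11.12 in knockout against 11.09 to 11.28 in wild type arrays. The lowest difference among them was -0.49 (Slc17a7, limma adjusted p = 0.36). Tested striatal markers, 6 of 8, were lower in all 6, none past the threshold. Their mean levels were 8.34 to 8.75 in knockout against 8.88 to 9.15 in wild type arrays. In 5 of the 6 the unadjusted limma p was under 0.05 (6.49% of all genes), and in 3 the groups did not overlap (3.65% of all genes). Choroid plexus markers, 9 of 12 tested, were at 7.43 in knockout 2 against 8.48 to 8.92 on the other arrays. Of 7 radial glia markers tested, 4 were higher and 3 lower in knockout cortex (median 0.019). All 7 tested markers of dividing cells (median 0.13) and all 4 of microglia (median 0.23) were higher, where 51% of all genes were. None of these passed. The part of such markers in the values below was not tested. In bulk tissue, fewer cells of a type and less RNA per cell cannot be told apart.

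Many promoters of cilium genes carry an X-box, the inverted repeat bound by RFX transcription factors. RefSeq promoter windows (GRCm38.p6, 250 bases before to 50 after a start site) were found for 32 of the 36 genes, all but Tmem67, Ift122, Ift81 and Ift80. The 6 letters GTTGCC, a core of the X-box, on either strand, were in 16 of the 32 genes (50%), against 14.1% of 27025 genes with a window. The spaced repeat GTTNCCNNNGNNAC, which can overlap that core, was in 9 of 32 (28.1%), against 2.53% of all, and the tighter GTTGCCNNGGNAAC in 3 (9.38%, against 0.355%). These spellings were settled on after several had been counted, and a match is a description of letters, not a binding site. Of 18 matches to the core, 11 began after the start site. The stretches below show the spaced repeat in capitals where it lay before the start site, in a transition zone gene whose level is described in full below (Tctn2), in the gene with the probe set of highest usage shift (Mks1), in a BBSome gene (Bbs7) and in a train gene (Ift57). Nphp4 also held the repeat before its start site, at position -231 and on the opposite strand only, and is not shown. The repeat began at position -62 from the start site in Tctn2, -24 in Mks1, -121 in Bbs7 and -87 in Ift57. In GRCm38.p6 they are chr5:124598657-124598730 (+ strand), chr11:87853161-87853214 (+), chr3:36613467-36613540 (- strand) and chr16:49699177-49699250 (+).
Tctn2: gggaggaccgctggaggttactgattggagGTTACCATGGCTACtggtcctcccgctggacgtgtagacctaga
Mks1: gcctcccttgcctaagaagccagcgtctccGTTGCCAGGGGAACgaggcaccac
Bbs7: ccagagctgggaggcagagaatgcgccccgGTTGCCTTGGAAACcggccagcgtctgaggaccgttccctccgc
Ift57: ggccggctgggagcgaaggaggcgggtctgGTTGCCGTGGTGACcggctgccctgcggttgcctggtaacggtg

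At the level of whole genes, 0 of the 34 cilium genes passed the test between wild type and knockout cortex (limma with Benjamini-Hochberg adjustment over 12960 genes), where 0.116% of all genes did. At an unadjusted limma p under 0.05 there were 3 of 34, against 6.49% of all genes: Ttc8, higher in knockout as 2.7% of all genes were, and Rpgrip1l and Tctn2, lower as 3.79% of all genes were. The groups overlapped in each of the 34, and 3.65% of all genes showed no overlap. Differences (knockout minus wild type, log2) ran from -0.25 to 0.25, 18 above and 16 below 0, with a median of 0.015 against 0.0027 over all genes tested. The 95% intervals of the differences reached no lower than -0.50 (Ift74) and no higher than 0.48 (Ttc8). Each interval stands for its own gene and is not adjusted for the 34. A p that misses the threshold does not show that a gene was the same in both groups.

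**Figure D1:**
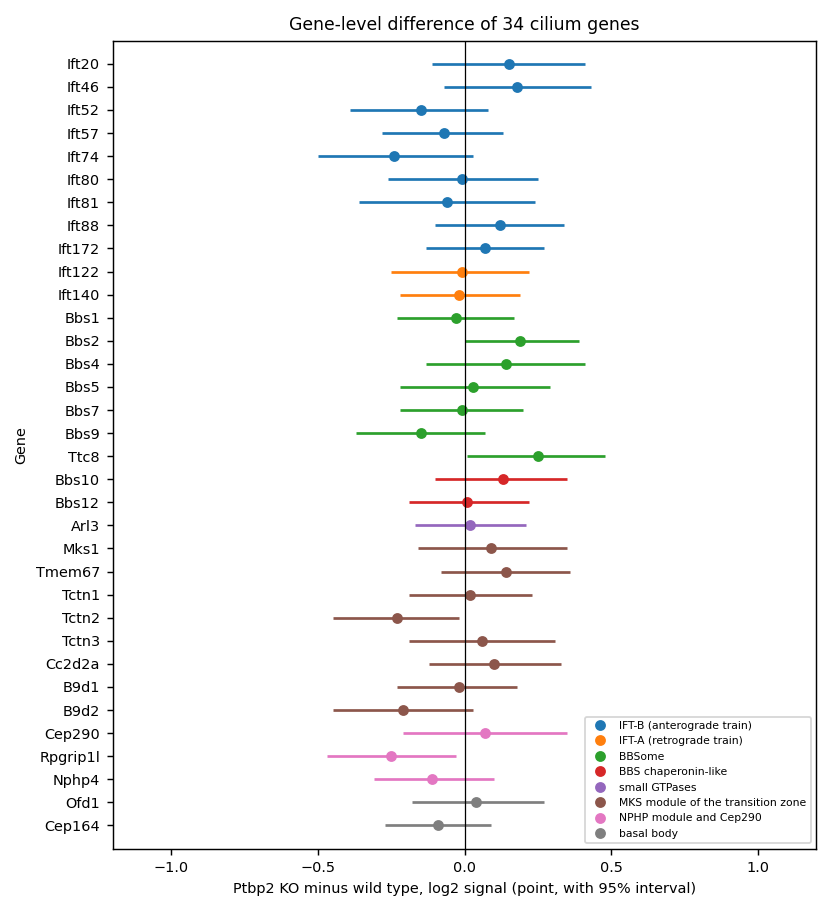
Difference in gene level of the 34 cilium genes, knockout minus wild type on the log2 scale (points) with 95% intervals from limma (lines), coloured by role. Points lie between -0.25 and 0.25, and the intervals of Ttc8, Tctn2 and Rpgrip1l leave out 0 before adjustment for 12960 genes.

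Among the 9 IFT-B genes, 4 were higher and 5 lower in knockout cortex, with a median of -0.0065 and no call. Ift74, which with Ift81 binds tubulin for transport, differed most. Its log2 levels were 8.88, 8.58, 8.40 and 8.74 on wild type arrays 1 to 4 and 8.69, 8.41, 8.14 and 8.42 on knockout arrays 1 to 4. Knockout 1 lay above wild type 2 and 3, so the groups overlapped, and the difference was -0.24 (SE 0.13, limma adjusted p = 0.81, two-sided exact permutation p = 0.20). It was -0.14 without knockout 3 and -0.13 with the signal filter at the 75th percentile of probe sets. Its partner Ift81 was at 8.83 ± 0.24 and 8.77 ± 0.28 (SD, n = 4 each). The wild type arrays gave 8.50 ± 0.12 and the knockout arrays 8.63 ± 0.16 for Ift88, the train core subunit whose loss abolishes cilia. Ift172, read by 54 probe sets, was at 8.41 ± 0.12 and 8.48 ± 0.091. Ift20, the subunit that also resides at the Golgi, was at 10.84 in wild type 3 and between 11.24 and 11.46 on the other 7 arrays. Ift46 showed the same low array, at 9.62 in wild type 3 against 9.98 to 10.29 elsewhere, and its difference of 0.18 (SE 0.12) did not pass. Ift52 (-0.15), Ift57 (-0.07) and Ift80 (-0.01) make up the rest.

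Of the 2 IFT-A genes measured, neither differed from 0 by more than its SE. Ift140 was at 8.86, 8.63, 8.64 and 8.80 in wild type and 8.79, 8.64, 8.59 and 8.84 in knockout cortex, arrays 1 to 4 in each. These values interleave, and the difference was -0.019 (SE 0.097, 95% interval -0.22 to 0.19, limma adjusted p = 0.99, exact permutation p = 0.686). With no signal filter it was -0.22 (limma adjusted p = 0.73), and it turned to 0.025 without wild type 1, 0.022 without knockout 3, 0.0073 without knockout 2 and 0.002 without wild type 4. Ift122 was at 8.93 ± 0.23 and 8.91 ± 0.073 (SD, n = 4 each), with wild type 1 highest at 9.23.

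The BBSome gave the highest differences of the 34 genes. Ttc8, the subunit also known as BBS8, was at 8.69, 8.64, 8.43 and 8.81 on wild type arrays and 9.05, 8.61, 8.92 and 8.98 on knockout arrays. Knockout 1, 3 and 4 lay above every wild type array, but knockout 2 fell among them. The difference was 0.25 (SE 0.11, 95% interval 0.01 to 0.48), which did not pass after adjustment (limma adjusted p = 0.76, exact permutation p = 0.114). With the mean of the probe sets it was 0.14. Bbs2, another BBSome subunit, was at 8.84, 8.72, 8.60 and 8.77 in wild type and 9.01, 8.81, 8.88 and 8.99 in knockout cortex. There, too, only knockout 2 crossed into the wild type range, and the difference of 0.19 (SE 0.092, limma adjusted p = 0.77, exact permutation p = 0.0571) did not pass; Bbs2 was singled out after its values were seen. With the filter at the 75th percentile its difference was -0.091. Bbs4, which recruits the complex to centriolar satellites, was at 8.38 in wild type 3 and at 8.91 to 9.03 on the other 7 arrays. Bbs9 lay the other way, at 9.36 ± 0.15 on wild type and 9.21 ± 0.14 on knockout arrays (-0.15, SE 0.10). Bbs1 (-0.03), Bbs5 (0.03) and Bbs7 (-0.01) were nearer to no difference. In all, 4 of the 7 subunits were higher, 3 lower and 0 passed.

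Bbs10 and Bbs12 encode chaperonin-like proteins that help assemble the BBSome. Bbs10 was at 8.34, 8.16, 8.31 and 8.34 in wild type and 8.18, 8.48, 8.64 and 8.36 in knockout cortex. Knockout 2, 3 and 4 lay above every wild type array and knockout 1 below all but wild type 2, with a difference of 0.13 (SE 0.11, limma adjusted p = 0.91, exact permutation p = 0.229). It ranged from 0.053 without knockout 3 and 0.085 without wild type 2 to 0.21 without knockout 1, and was 0.057 with array weights. Bbs12 was at 7.54 ± 0.15 and 7.55 ± 0.049 (SD, n = 4 each).

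Of the GTPases only Arl3 could be read. Arl3 releases lipid-anchored cargo inside the cilium, and Arl13b is the exchange factor that activates it. Its levels were 11.48, 11.52, 11.31 and 11.36 in wild type and 11.49, 11.48, 11.39 and 11.37 in knockout cortex, a narrow spread in which the arrays interleave. The difference was 0.016 (SE 0.089, 95% interval -0.17 to 0.21, limma adjusted p = 0.99, exact permutation p = 0.743). Its sign turned without wild type 3 (-0.021), wild type 4 (-0.0016) or knockout 1 (-0.0039), and with the mean of the probe sets it was -0.067.

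The MKS module forms the membrane side of the transition zone gate. Of its 8 genes, 5 were higher and 3 lower, with a median of 0.041. Tctn2, a tectonic of the gate, was at 9.05, 9.01, 8.71 and 9.0 on wild type arrays and 8.74, 8.60, 8.66 and 8.85 on knockout arrays. All 4 knockout arrays lay below wild type 1, 2 and 4, and wild type 3 lay among them. The difference was -0.23 (SE 0.10, 95% interval -0.45 to -0.02), not past the threshold (limma adjusted p = 0.75, exact permutation p = 0.0857). Its relatives Tctn1 and Tctn3 were at 0.02 and 0.06. B9d2, a B9-domain subunit, was at 7.76 ± 0.21 on wild type and 7.55 ± 0.13 on knockout arrays (-0.21, SE 0.11, limma adjusted p = 0.82), while its partners B9d1 (-0.02) and Mks1 (0.09) were closer to 0. Only 5 probe sets of B9d2 were retained, 3 higher and 2 lower in knockout cortex, from -0.28 to 0.22, so its median rests on few values. The B9d2 difference was -0.24 without knockout 2 and -0.35 with array weights. The latter gave a limma adjusted p of 0.15, the lowest of any cilium gene in any alternative. Tmem67, the membrane protein mutated in Meckel syndrome, was at 8.67 ± 0.18 and 8.80 ± 0.089, and the scaffold Cc2d2a at 8.00 ± 0.18 and 8.11 ± 0.12 (SD, n = 4 each).

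Rpgrip1l, a scaffold at the base of the transition zone, gave the lowest difference of the 34 genes. It was at 8.63, 8.28, 8.28 and 8.32 in wild type and 8.13, 8.04, 8.04 and 8.30 in knockout cortex. Knockout 1, 2 and 3 lay below every wild type array and knockout 4 did not. The difference was -0.25 (SE 0.10, 95% interval -0.47 to -0.03, limma adjusted p = 0.75, exact permutation p = 0.0857), and wild type 1 stood above the other wild type arrays. Without wild type 1 it was -0.16. Nphp4, its partner, was at 7.95 ± 0.056 and 7.84 ± 0.15, and Cep290, which bridges microtubules and membrane, at 7.49 ± 0.26 and 7.56 ± 0.19 (SD, n = 4 each).

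At the basal body, Ofd1, which caps the centriole's distal end, was at 8.15 ± 0.19 and 8.19 ± 0.082 (SD, n = 4 each). Cep164, the distal appendage protein that docks the centriole to the membrane, was at 7.96, 7.85, 7.88 and 8.00 in wild type and 7.88, 7.87, 7.79 and 7.78 in knockout cortex. The difference was -0.091 (SE 0.086, limma adjusted p = 0.93, exact permutation p = 0.114), and knockout 1 and 2 lay among the wild type arrays. Its single probe sets leaned the other way: 18 of 24 were higher in knockout cortex. With the mean of the probe sets in place of the median, the difference was 0.099 (limma adjusted p = 0.84). With the median but no signal filter it was 0.22 (limma adjusted p = 0.72). The sign for Cep164 thus depended on the summary and on the probe sets retained.

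**Figure D2:**
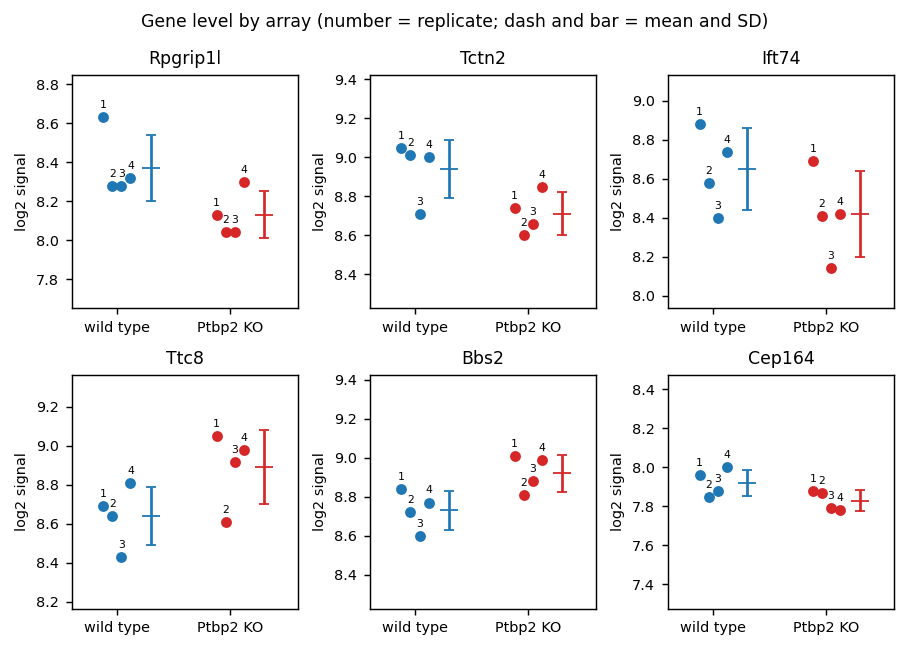
Log2 gene level on each array for 6 of the genes described in full. Each point is an array, numbered by replicate, and the dash with its bar gives mean and SD (n = 4). In each panel the groups overlap, and wild type 3 is the lowest wild type array for Tctn2, Ift74, Ttc8 and Bbs2.

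Much of the spread in these genes lay between arrays of the same group. Wild type 3 was the lowest of the 4 wild type arrays in 20 of 34 cilium genes (58.8%), as it was in 47.8% of all genes tested. Wild type 1 was the highest wild type array in 22 (64.7%, against 49.7% of all genes). In the knockout group, knockout 2 was lowest in 18 (52.9%, against 35.4%) and knockout 1 highest in 17 (50%, against 30.4%). The median deviation of the 34 genes from their own means was 0.14 in wild type 1 and -0.11 in wild type 3, against 0.092 and -0.083 over all genes. The median residual SD was 0.15 for both the 34 genes and all genes. Without wild type 3, no cilium gene passed either, the lowest limma adjusted p was 0.43 (Tctn2), and differences ran from -0.32 (Ift74) to 0.18 (Ttc8).

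**Figure D3:**
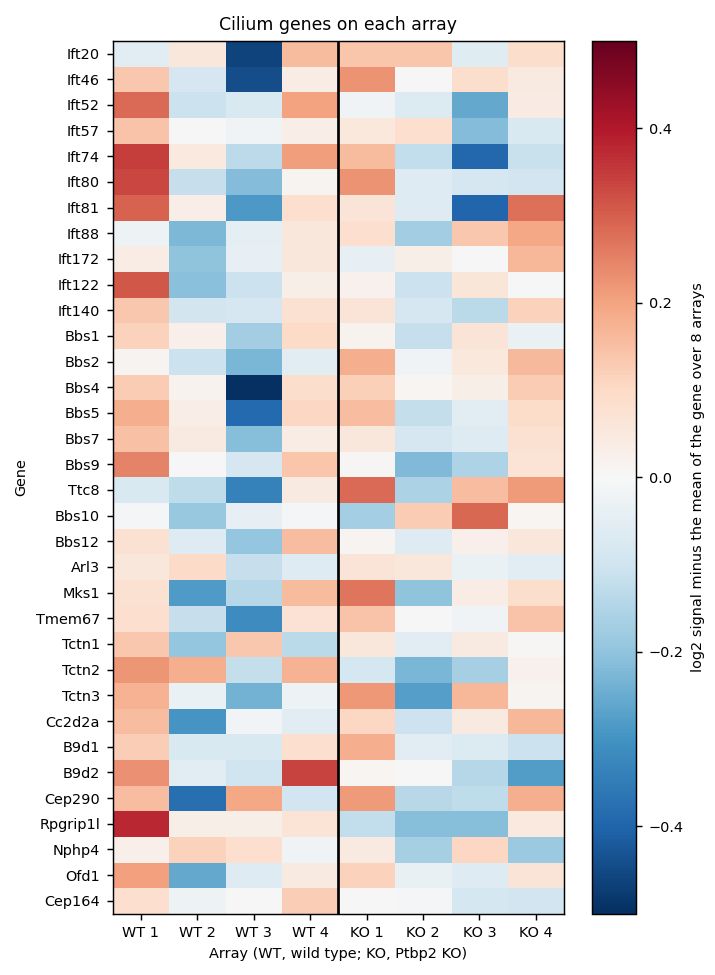
Each row is a cilium gene and each column an array; colour gives the log2 signal minus the mean of the gene over the 8 arrays. Wild type 1 is mostly above (median 0.14) and wild type 3 mostly below (median -0.11) the means, and no block of genes separates the 4 wild type from the 4 knockout arrays.

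Single probe sets were compared next, since an exon can change while the gene does not. Of the 691 retained probe sets of the 34 genes, 0 passed in level (limma, adjusted over 312767 probe sets), where 0.0921% of all did, and 42 had an unadjusted p under 0.05 (6.08%, against 7.44% of all). In 26 the groups did not overlap, 12 higher and 14 lower, a share of 3.76% against 4.24% of all probe sets. Differences ran from -0.65 to 0.63. The largest share of low probe sets was in Tctn2, with 26 of 27 lower in knockout cortex, 4 of them without overlap, and 10 of its 27 at an unadjusted p under 0.05. Rpgrip1l had 23 of 27 lower and 3 without overlap, and Bbs9 had 24 of 27 lower. In Bbs2, 17 of 19 were higher, and in Bbs4, 19 of 21. At least 85% of the probe sets leaned the same way in these 5 of the 28 cilium genes with 10 or more, a share of 17.9% against 14.6% of all such genes; the 85% was chosen after the counts were seen, and probe sets of a gene share the same RNA. The probe set with the smallest limma p was Rpgrip1l 4906519, at 9.46 ± 0.11 on wild type and 8.93 ± 0.17 on knockout arrays (SD, n = 4 each; difference -0.53, SE 0.12, limma adjusted p = 0.26).

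**Figure D4:**
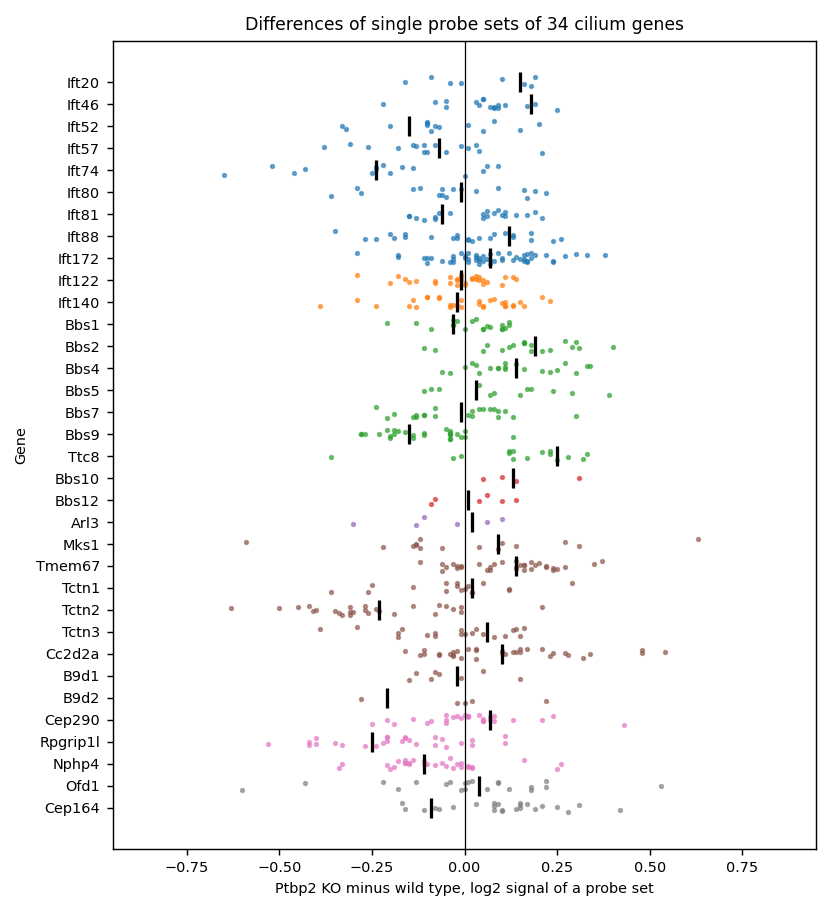
Difference of each of the 691 retained probe sets (dots, knockout minus wild type, log2) by gene, with the gene-level difference as a black bar. Most dots of Tctn2 (26 of 27) lie left of 0 and most of Bbs4 (19 of 21) right of 0, while in Cep164 the bar lies left of most dots.

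Usage asks whether a probe set shifted relative to the rest of its gene, which is what a switch of exon would leave. By limma diffSplice, 0 of the 691 probe sets passed, against 0.212% of 195604 tested, and by the splicing index (probe set minus gene median), which gives each probe set its own spread, 0 passed against 0.00869%. At an unadjusted p under 0.05 there were 23 by diffSplice (3.33%, against 4.57% of all) and 45 by the splicing index (6.51%, against 5.27%). The groups did not overlap in usage for 23 probe sets (3.33%, against 2.92%). The range was -0.63 to 0.67, and the smallest adjusted p was 0.24 by diffSplice and 0.88 by the splicing index.

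The 5 probe sets with the smallest diffSplice p lay in 4 genes, and 2 of them in Mks1 pointed in opposite directions. Mks1 4498222 was at 6.62, 6.5, 7.21 and 7.48 in wild type and 7.74, 7.24, 7.47 and 7.89 in knockout cortex. Wild type 1, 2 and 3 lay below every knockout array and only wild type 4 crossed into the knockout range. The usage was 0.67 (SE 0.20, diffSplice adjusted p = 0.24, splicing index adjusted p = 0.92), and relative to the gene the groups did not overlap. Wild type 1 and 2 lay below the signal filter, so the size is not exact. Mks1 4817113 was at 7.98, 7.58, 7.59 and 7.59 against 7.42, 7.32, 6.34 and 7.32. All knockout arrays were lower, and knockout 3 was lowest and below the signal filter. The usage was -0.63 (SE 0.20, diffSplice adjusted p = 0.33, splicing index adjusted p = 0.92). Without knockout 3 the usage was -0.41. By its Simes adjusted p, 0.25, Mks1 did not pass as a gene.

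Ofd1 4342377 was at 7.98, 7.49, 7.16 and 7.38 in wild type and 7.37, 6.71, 6.28 and 7.26 in knockout cortex. Knockout 1 and 4 overlapped with wild type 3, and the usage was -0.63 (SE 0.20, diffSplice adjusted p = 0.32, splicing index adjusted p = 0.92). Knockout 2 and 3 lay below the signal filter, so the size is not exact. Ttc8 5344445 was at 7.58, 6.83, 6.35 and 7.37 against 7.10, 6.44, 5.81 and 7.33. It varied as much within a group as between groups, with a usage of -0.54 (SE 0.18, diffSplice adjusted p = 0.36; splicing index adjusted p = 0.92). Its knockout mean of 6.67 lay below the signal filter, so the size is not exact. Without wild type 3 this probe set passed in diffSplice (usage -0.69, adjusted p = 0.043). It also passed there with array weights (-0.53, adjusted p = 0.043) and with the replicate number as a block (-0.54, adjusted p = 0.024). Over the 8 fits that left out an array its usage ran from -0.74 to -0.27, the last without knockout 3.

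Ift140 5128472 was at 8.70, 8.55, 8.44 and 8.63 in wild type and 8.39, 8.26, 7.86 and 8.24 in knockout cortex. Every knockout array lay below every wild type array, while the gene as a whole was at -0.019. The usage was -0.40 (SE 0.15, diffSplice adjusted p = 0.53) and the splicing index -0.37 (SE 0.098, adjusted p = 0.90), so neither passed. The place of these probe sets within their genes was not analysed here.

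**Figure D5:**
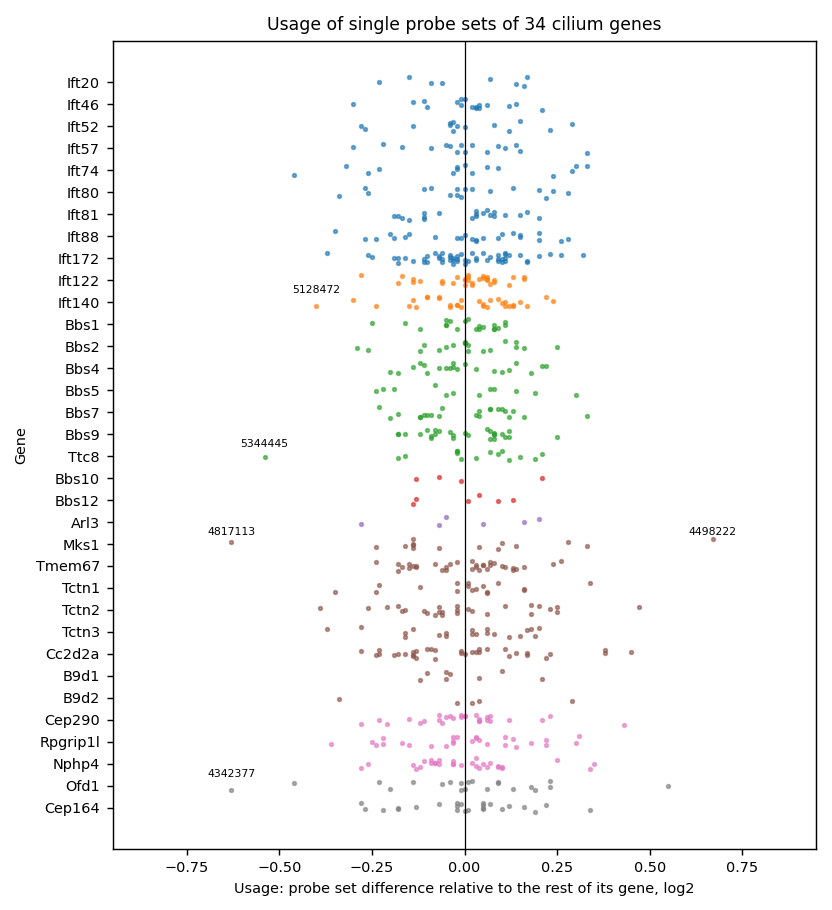
Usage of the 691 probe sets by gene, as the difference between knockout and wild type cortex relative to the rest of the gene (log2, from diffSplice). The 5 probe sets with the smallest p are labelled, from 4817113 and 4342377 at -0.63 to 4498222 at 0.67, and none passed after adjustment.

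Other genes of the cilium, from lists that do not hold the 34, were read in the same fit. The lists were drawn up with earlier results of these data known, so their counts describe the listed genes and do not test the pathway. Of 69 listed, 63 were tested, 31 higher and 32 lower with a median of -0.00025, and 1 passed (0.116% of all genes did). In 4 the groups did not overlap (Dzip1, Ahi1, Ptch1 and the cilium motor gene Kif17 at -0.11), a pattern seen in 3.65% of all genes. The gene that passed was Dzip1, a basal body protein of cilium assembly and Hedgehog signalling. Its level was 10.24 to 10.55 in wild type and 9.0 to 9.47 in knockout cortex (-1.14, SE 0.12, limma adjusted p = 1.8e-04). It passed in every alternative tried. The next was Ahi1, the Joubert syndrome protein of the transition zone, at 11.14, 11.02, 11.14 and 11.04 in wild type and 10.82, 10.60, 10.30 and 10.85 in knockout cortex. The groups did not overlap, but the difference of -0.44 (SE 0.12) did not pass (limma adjusted p = 0.33, exact permutation p = 0.0286, the lowest possible with 4 arrays in each group). Of the 16 further transition zone and membrane genes tested, Ahi1 among them, 10 were higher and 6 lower. Invs, of the inversin compartment, was at -0.21 (SE 0.11, limma adjusted p = 0.79).

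Of 21 further train, BBSome and motor genes tested, 9 were higher and 12 lower and 0 passed, with Ift27 at 0.24 (SE 0.13) and Tulp3, an adaptor that brings receptors into cilia, at -0.18 (SE 0.10). Of 18 basal body and assembly genes, 11 were higher and 7 lower. Among them, the RFX factors that bind X-boxes were at 0.23 (Rfx1, SE 0.098, limma adjusted p = 0.75), 0.16 (Rfx2), 0.01 (Rfx3) and 0.01 (Rfx4). Of 8 Hedgehog transducers and targets, 7 were lower and 0 passed, where 51% of all genes tested were higher. Their differences were small, from -0.17 to 0.05 with a median of -0.019. Ptch1, the Hedgehog receptor and target gene, was at 9.11 to 9.16 in wild type and 8.86 to 9.06 in knockout cortex, without overlap (-0.17, SE 0.086, limma adjusted p = 0.79). Gli1, another target, was at 0.05 (SE 0.092).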

How the data were processed

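Per the submitters' processing notes, the deposited log2 signals per probe set involved Affymetrix Expression Console, RMA and build mm9; which step used which is not stated there. RMA equalises arrays and compresses low signals. Per the labels' protocols, RNA was extracted with Trizol and labelled with an Affymetrix whole-transcript sense assay. A platform annotation gave 303629 of 625534 probe sets 1 symbol, updated through RefSeq (GRCm38.p6); 5892 with several symbols were not used. Ift46 and Tctn1 were matched through older symbols. Genes needed at least 4 probe sets with a mean of at least 6.84.

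Fits used limma 3.58.1 in R 4.3.3 (lmFit, eBayes, diffSplice without Ptbp2) over all features, with Benjamini-Hochberg adjustment at 0.05 and no covariate. The code was also run on simulated arrays with independent noise per probe set and added changes larger than any gene-level difference of the cilium genes. That outcome is not given here and does not bear on the power for differences of the size seen. Alternatives were each array left out, a replicate block, other filters and gene summaries, renormalization, array weights, other eBayes settings and the splicing index. Exact permutation tests were two-sided over 70 assignments.

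The genes, lists, tests and alternatives were chosen with earlier results of these data known. Described in full were, per role, the gene with the largest difference, and the 5 probe sets with the smallest diffSplice p; Bbs2 and other genes outside this rule were added after values were seen. The same replicate numbers in both groups were not taken as pairs, since the labels state none.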

Additional observations from a re-analysis of the deposited data

Results flagged for a closer look

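In 6 of 68 groups of 4 arrays (34 genes, each in both genotypes), a single array stood far from the others by Dixon's ratio of gap to range, which passes the 95% critical value by chance in about 1 in 20 groups. In wild type cortex, Bbs4 was at 8.38 in wild type 3 against 8.92 to 9.03 (ratio 0.834), Tctn2 at 8.71 in wild type 3 against 9.0 to 9.05 (0.871), Rpgrip1l at 8.63 in wild type 1 against 8.28 to 8.32 (0.889) and Bbs10 at 8.16 in wild type 2 against 8.31 to 8.34 (0.832). In knockout cortex, Ift80 was at 8.37 in knockout 1 against 8.05 to 8.08 (0.893) and B9d1 at 8.73 in knockout 1 against 8.44 to 8.49 (0.845).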

How the results depend on the processing

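Under 18 alternatives, no cilium gene passed in level and Dzip1 remained the only other cilium gene called. The median over the tested genes was 0.015, and -0.049 to 0.081 with an array left out, so its sign turned. In the other alternatives it ran from -0.034 to 0.015. Its shifts were below 0.096, the SD of its array values. Leaving out an array can hardly exceed that bound, so it is no measure of stability. No cilium probe set passed in level in 16 alternatives. The count with differential usage by diffSplice was 0, and 0 to 1 with an array left out (Ttc8 5344445 without wild type 3), 1 with no signal filter (in Rpgrip1l), 2 with array weights (Tctn1 5474127 and Ttc8 5344445) and 2 with the replicate number as a block (Mks1 4498222, adjusted p just under the threshold at 0.05 when rounded, and Ttc8 5344445, adjusted p = 0.024). The deviations of same-numbered arrays correlated at 0.25, -0.0039, 0.033 and 0.17, which does not exclude pairing. The numbers were not treated as pairing since the labels state none, and the block changed no gene-level call among the cilium genes. The splicing index called 0. Signs turned for Bbs2 (-0.091) with the filter at the 75th percentile, for Cep164 with no filter (0.22) and with the mean of probe sets (0.099), for Ift140 under that stricter filter (0.036, against -0.22 with none) and for Arl3, also under it (-0.016), with the mean (-0.067) and without wild type 3 and knockout 3 (-0.0062); the cause was not tested. With an array left out, Ift140 ran from -0.059 to 0.025 and Arl3 from -0.021 to 0.049. With the filter at the 75th percentile 28 of the 34 genes could be tested. Calls over all genes were 15, and 5 (at least 1 probe set per gene) to 71 (array weights) elsewhere; calls of usage over all probe sets were 414, and 139 (75th percentile) to 2084 (array weights). Low signal limits Cep290, where 28 of 58 probe sets passed the filter.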

Other observations

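Genes of motile cilia, a different organelle type found on ependymal cells, were read beside the primary cilium genes. Of 20 listed, 16 were tested, 13 lower and 3 higher in knockout cortex with a median of -0.08, and 0 passed. Over all genes tested, 51% were higher. In 2 of the 16, Spag17 and Dnah5, the groups did not overlap, as in 3.65% of all genes. Spag17, a central pair protein of the axoneme, was at 7.64 ± 0.19 on wild type and 7.15 ± 0.30 on knockout arrays (SD, n = 4 each; -0.48, SE 0.14, limma adjusted p = 0.41), without overlap. Knockout 3 was at 6.79 for Spag17, below the signal filter of 6.84, so the size is not exact. Spag6 was at -0.29 (SE 0.10) and the dynein heavy chain gene Dnah5 at -0.19 (SE 0.089). Dnah5 also lay near the filter, with means of 7.26 in wild type and 7.07 in knockout cortex. Foxj1, the master regulator of motile cilia, was at 8.28 ± 0.41 and 8.10 ± 0.19. The mean level of the list was 7.54 to 7.66 in knockout and 7.59 to 7.77 in wild type arrays. It was 7.54 in knockout 2, where choroid plexus markers were at 7.43, and also in knockout 3, where those markers were at 8.92. The part of choroid plexus in these values was not tested.

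Of the primary cilium genes with a promoter window that were tested, the 15 with the letters GTTGCC had a median difference of -0.019, from -0.23 to 0.12, with 6 higher. The 15 without it had a median of 0.068, from -0.25 to 0.25, with 11 higher. This split was made after the data were seen and carries no test.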
